A study of Caenorhabditis elegans with 2 samples.

Results

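The regions described are the X chromosome binding peaks of MXL-3 in Caenorhabditis elegans, apart from those at its own gene. They were taken by position, as every peak on X with its summit more than 50 kb from mxl-3 in the list the authors had thresholded by irreproducible discovery rate (IDR). Of 3935 peaks in the list, 964 lay on X, 26 of these fell in the zone around mxl-3, and 938 remained. The 2971 peaks of chromosomes I to V served for comparison. The zone was left out because the worms carried a further copy of mxl-3 in the transgene. Its limits fell among ordinary peaks. On the left side the nearest peak left out lay 42.6 kb from mxl-3 with a signal of 191, and the nearest one kept lay 66.0 kb away with a signal of 97.7. On the right side these were 38.3 kb with a signal of 136 and 50.6 kb with a signal of 106.

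All measurements came from 1 group, strain OP745, in 2 biological replicates. The worms carried the integrated transgene wgIs745, in which mxl-3 is joined to TY1, EGFP and 3xFLAG tags beside a working unc-119 copy, in the unc-119 mutant background tm4063. Larvae of both sexes were taken whole at the L4 stage, at 48 hours, after bleaching and starvation at L1. Chromatin was immunoprecipitated with an anti-GFP antibody (chromatin immunoprecipitation sequencing, ChIP-seq). The antibody entry in the sample labels names mxl-3. There was no second condition, so every comparison sets X against autosomes or summits against their flanks within these larvae. Whole worms mix all tissues, and the profile does not tell in which cells a site was bound. Neither the number of transgene copies nor the control's strain is stated in the labels. No read totals were used, so the depth behind a peak is unknown.

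MXL-3 is a basic helix-loop-helix leucine zipper protein of the Max family. Such proteins bind E-boxes as dimers, above all the palindrome CACGTG, and MXL-3 is known in the worm as a fasting-responsive regulator of lysosomal lipase genes. The X chromosome differs from the autosomes in gene content and in regulation. Hermaphrodites have a pair of X chromosomes and males a single one, and in hermaphrodites the dosage compensation complex, a condensin-like machine, lowers X transcription. It loads at recruitment sites on X that hold a short GC-rich motif and then spreads along the chromosome. The autosomes of C. elegans have gene-dense centres and repeat-rich arms, a division that is weaker on X.

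The sequences below show what lay under strong X summits. Each runs 60 bp to either side of the summit on the forward strand of ce11, and the first 5 are the strongest members with CACGTG in that stretch clear of untranslated regions, with that motif in capitals.

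mans-3 promoter, chrX:5165156-5165276: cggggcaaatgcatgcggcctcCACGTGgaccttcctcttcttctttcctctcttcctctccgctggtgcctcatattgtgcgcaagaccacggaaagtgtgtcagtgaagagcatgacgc

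intergenic near bcat-1, chrX:12872435-12872555: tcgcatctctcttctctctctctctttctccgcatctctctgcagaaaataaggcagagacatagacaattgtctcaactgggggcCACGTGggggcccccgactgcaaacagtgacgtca

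tatn-1 promoter, chrX:14790452-14790572: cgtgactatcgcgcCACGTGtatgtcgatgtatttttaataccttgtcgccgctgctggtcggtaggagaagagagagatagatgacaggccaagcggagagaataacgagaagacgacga

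nhr-27 intron, chrX:12759735-12759855: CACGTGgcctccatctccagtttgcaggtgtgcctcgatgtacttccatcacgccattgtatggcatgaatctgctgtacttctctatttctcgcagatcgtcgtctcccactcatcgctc

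C36E6.2 promoter, chrX:17451526-17451646: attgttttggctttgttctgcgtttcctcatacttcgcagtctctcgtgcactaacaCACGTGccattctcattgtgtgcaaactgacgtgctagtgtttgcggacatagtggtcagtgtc

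The next summit, at eef-1A.2, is the strongest without CACGTG that holds an 8-base GA repeat, shown in capitals.

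eef-1A.2 promoter, chrX:7823207-7823327: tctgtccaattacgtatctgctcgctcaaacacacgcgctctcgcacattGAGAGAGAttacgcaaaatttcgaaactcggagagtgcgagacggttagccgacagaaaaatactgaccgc

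A second set shows the core of the dosage compensation motif, GCGCAGGG, in capitals, read in the direction of the motif with 11 bases on either side. The first 6 sites have TC just before the core, as the published consensus of recruitment sites does. They are examples from the 13 such sites at X peaks, and not the 6 strongest. The mom-1 summit has a second core nearby, not shown, without TC. The last 3 lie at strong X summits without those bases.

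near W02H3.3, chrX:11094114-11094143, minus strand: cgttttatatcGCGCAGGGagcttatgcat

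near W02H3.3, chrX:11094215-11094244, minus strand: gggaaccattcGCGCAGGGacacctcactg

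mom-1 intron, chrX:6296565-6296594, plus strand: agataggtatcGCGCAGGGaagatttaccg

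near F20B6.9, chrX:4209255-4209284, minus strand: ttgccgctatcGCGCAGGGacacctctttc

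upstream of xol-1, chrX:8036390-8036419, minus strand: aattttttatcGCGCAGGGacgtatgtcga

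upstream of xol-1, chrX:8036424-8036453, plus strand: atttttccatcGCGCAGGGaacccttcgat

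R04E5.9 and cnnm-2, chrX:8811094-8811123, minus strand: gaacacgcgacGCGCAGGGagagggacgca

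pks-1 coding exon, chrX:5429579-5429608, plus strand: cattaaatttaGCGCAGGGaggacgccgtt

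gcc-1 promoter, chrX:3159715-3159744, minus strand: cggtaaacaacGCGCAGGGcgttcgagcgg

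X carried more peaks for its length than any autosome. It had 53.2 peaks per Mb, against 31.5 on V to 42.5 on III. With the zone set aside, X made up 17.6% of the nuclear genome and held 24.0% of the peaks (exact 95% interval 22.7 to 25.4%), a share above that of its length (two-sided exact binomial p = 5.8e-24). Set against the share of protein-coding genes on X, 13.6%, the excess was 10.4 percentage points rather than 6.41. Intervals and p-values here count peaks as independent, which neighbouring peaks are not, and they cover counting error only.

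X and the autosomes differed most towards the chromosome ends. Peak density in the central 50% of X was 55.9 per Mb, just above the 40.8 to 54.1 of the autosomal centres. In the outer parts it was 50.6 per Mb on X and 17.7 to 30.9 on the autosomes. The central 50% of X thus held 52.8% of its peaks, against 63.4 to 72.0% on each autosome. When the central 50% of every chromosome alone was compared, X held 20.2% of the peaks with 17.5% of the length, a smaller excess of 2.72 points (two-sided exact binomial p = 4.9e-04, a comparison chosen after seeing the data).

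**Figure D1:**
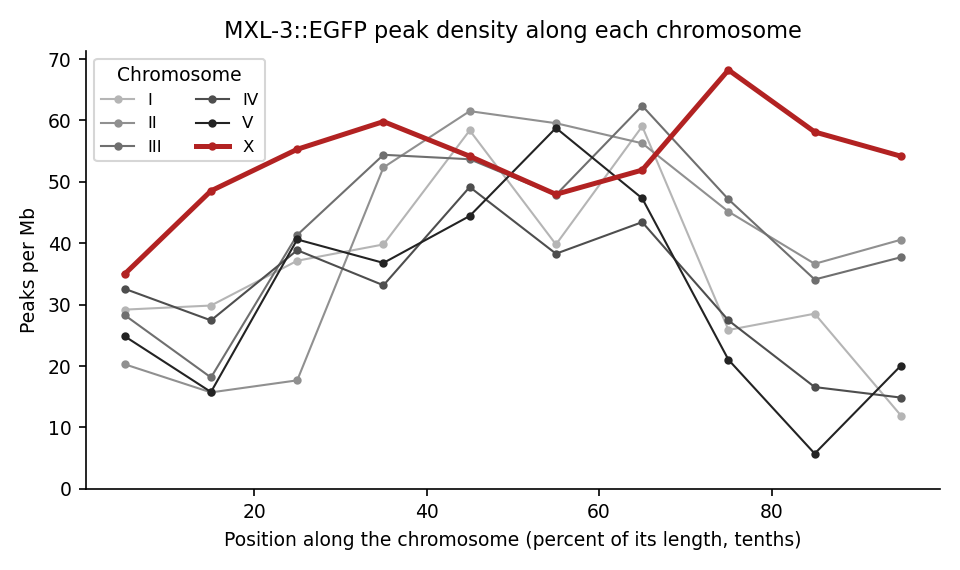
Peaks per Mb in each of 10 equal parts of every chromosome, against position as percent of chromosome length. X (red) runs from 35.0 to 68.2 and lies above the grey autosome lines at both ends, while the autosomes reach X levels in their central parts.

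Along X the peaks were evenly spread. The 17 full bins of 1 Mb held from 32 to 64 peaks, with a median of 56 and a coefficient of variation of 0.171. The 80 full autosomal bins ran from 6 to 67 with a median of 36 and a coefficient of variation of 0.435, and 36 of them lay below the emptiest X bin. On X the lowest counts were at the left end, 32 in the first Mb and 35 in the second. The fullest bins were those from 11 Mb with 64 peaks, from 5 Mb with 63 and from 8 Mb with 60. The bin that contains mxl-3, from 13 Mb, held 59 peaks over the sequence left outside the zone, a density of 65.6 per Mb. Gene number tracked peak number loosely across the 17 bins (Pearson's r = 0.357, as a description). On single autosomes r ran from -0.116 on II to 0.851 on III. The bins share the same libraries.

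The strongest summit of each of the 3 fullest bins lay in a promoter window. From 11 Mb the strongest summit lay between gst-42, a glutathione S-transferase gene, and D1053.2, with a signal of 668. From 5 Mb it was the mans-3 summit at 1119, followed by puf-9, which codes for a Pumilio-family RNA-binding protein, at 762 and the kinesin gene klp-13 at 507. From 8 Mb it was K02A6.3 at 935.

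The signal value is the authors' own, on a scale not defined in the sources used here, and it ranks peaks within its list. On X it ran from 91.2 to 1339 with a median of 138, and on the autosomes from 91.1 to 1445 with the same median of 138. The strongest X candidate that missed the IDR list had a signal of 91.0. Of the X peaks 253 (27%) stood among the strongest 25% of the peaks outside the mxl-3 zone, against 24.4% of autosomal peaks (two-sided Fisher's exact test, adjusted exact p = 0.165). With the strongest 10% in place of 25%, the shares were 12.6% and 9.19% (adjusted exact p = 0.00989). With the peaks of the mxl-3 zone set aside, 8 of the 20 strongest peaks lay on X (exact 95% interval 19.1 to 63.9%), and 28 of the 100 strongest did (19.5 to 37.9%).

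The pooled list from which the IDR peaks were drawn had 6159 candidates on X, or 350 per Mb, against 244 to 324 on the autosomes. Of these 15.2% (14.3 to 16.2%) passed the threshold, against 12.5% (12.1 to 12.9%) of 23779 autosomal candidates (adjusted exact p = 1.2e-07). In the central 50% of the chromosomes the pass shares were 15.2% and 14.8%, and the difference did not pass (adjusted exact p = 0.798).

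X peaks were found again in the replicate lists as often as autosomal ones. A summit within 100 bp was present in both replicate lists for 905 of 938 X peaks (96.5%) and for 2868 of 2971 autosomal peaks (96.5%). The 33 X peaks lacking one had signals no higher than 145. Across the X peaks found in both, Spearman's rho of the signals was 0.720, and on the autosomes 0.705. These peaks had been chosen by the authors for reproducibility, so the values describe the list and test nothing.

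The strongest members lay mostly just upstream of genes, and the 3 strongest stood highest in both replicates too. The sucl-1 summit, in the promoter window of a gene for a succinyl-CoA ligase subunit, had a signal of 1339 in the IDR list, 618 in replicate 1 and 729 in replicate 2. The serp-1.1 summit, 265 bp upstream, had 1125, 490 and 643 in the same order. The mans-3 summit, 179 bp upstream, had 1119, 459 and 662. All 3 therefore ranked far above the median X peak, which had 63.3 in replicate 1 and 81.4 in replicate 2.

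Below them came sym-4 at 996, K02A6.3 at 935 and nhr-35, a nuclear hormone receptor gene, at 930. The shared upstream region of trap-2, a translocon-associated protein gene, and ile-2, an intracellular lectin gene, had 929. A distal summit 4985 bp upstream of bcat-1, the branched-chain amino acid aminotransferase gene, had 898, with 446 in replicate 1 and 450 in replicate 2. The tatn-1 promoter, of the tyrosine aminotransferase gene, had 816, with 341 and 470.

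Others of the 20 strongest lay at epn-1, the epsin gene, at 678, at erd-2.1, which codes for a receptor retaining proteins in the endoplasmic reticulum, at 658, and at eef-1A.2, a translation elongation factor gene, at 617. An intron of nhr-27, another nuclear hormone receptor gene, had 630. A summit inside kin-20, a casein kinase 1 gene of the heterochronic pathway, had 605 and lay in the exon of the non-coding RNA gene F46F2.12. The rest were a distal site near F09C8.1 at 779, C36E6.2 at 600, eor-2 at 586 and an intron of H18N23.2 at 581. Of the 20 strongest, 7 had CACGTG within 100 bp of the summit.

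Strong sites outside promoters included an intron of aak-2, an AMP-activated kinase subunit gene, at 503 with 206 in replicate 1 and 300 in replicate 2. A summit 1677 bp downstream of the start nearest to it, that of mdl-1, had 541, with 256 and 279. It lay in the non-coding RNA gene R03E9.10, and the product of mdl-1 is a Mad-like protein of the Max network. This summit belonged to a run of 4 summits over 2536 bp near mdl-1, with signals from 226 to 548.

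Most X peaks stood alone. Joining summits no more than 2000 bp apart gave 801 chains, of which 699 were a single summit. The longest run held 7 summits over 7132 bp at kin-20, with signals from 91.7 to 605, and the next 5 summits over 3087 bp near bcat-1. Another summit lay within 5000 bp for 51.4% of X peaks and 53.9% of autosomal ones (adjusted exact p = 0.236). At 2000 bp the shares were 25.5% and 32.5% (adjusted exact p = 1.2e-04), and at 10000 bp the order turned, with 72.1% and 69.1% (adjusted exact p = 0.130).

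By location, 450 of the 938 X summits (48.0%, 44.7 to 51.2%) lay in a promoter window, 1000 bp upstream to 200 bp downstream of a protein-coding gene start. On the autosomes 51.8% did (adjusted exact p = 0.0749). These windows cover 21.8% of X and 27.2% of the autosomes, so summits were in promoters more often than positions were on both. The excess over positions was by a larger factor on X. Distal intergenic summits made up 25.7% on X and 23.5% on the autosomes (adjusted exact p = 0.236), where such sequence covers 29.3% and 19.9%. Their share was thus below that of the sequence on X and above it on the autosomes. Introns held 14.1% and 15% (adjusted exact p = 0.569), and exons 12.3% and 9.59% (adjusted exact p = 0.0552). Intron sequence covers 26.3% of X and 28.1% of the autosomes, and exon sequence 22.6% and 24.8%. Of the 115 exon members on X, 83 were in exons of genes that are not protein-coding. With the window drawn 2000 bp upstream the promoter shares were 60.2% and 66.6% (adjusted exact p = 0.00141). How much of X and of the autosomes this wider window covers was not measured. The median X summit stood 822 bp from the nearest start, and 265 lay beyond 2000 bp.

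X genes were bound more often than autosomal ones. A summit lay in the promoter window of 463 of 2712 X genes, which is 17.1% (15.7 to 18.5%), and of 1793 of 17242 autosomal genes, which is 10.4% (9.95 to 10.9%). The difference of 6.67 points passed the test (adjusted exact p = 5.3e-21), and no single autosome exceeded 12.7%. X has fewer genes per Mb than any autosome, 154 against 188 to 239, while it has more peaks. In the central 50% of the chromosomes 17.7% and 12.7% of genes were bound (adjusted exact p = 5.9e-06, chosen after seeing the data). A single summit served more than 1 gene in 32 cases, and 21 X genes had 2 summits, among them pab-2, a poly(A)-binding protein gene, dpyd-1, nipi-3, a Tribbles-family gene, and lin-14.

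**Figure D2:**
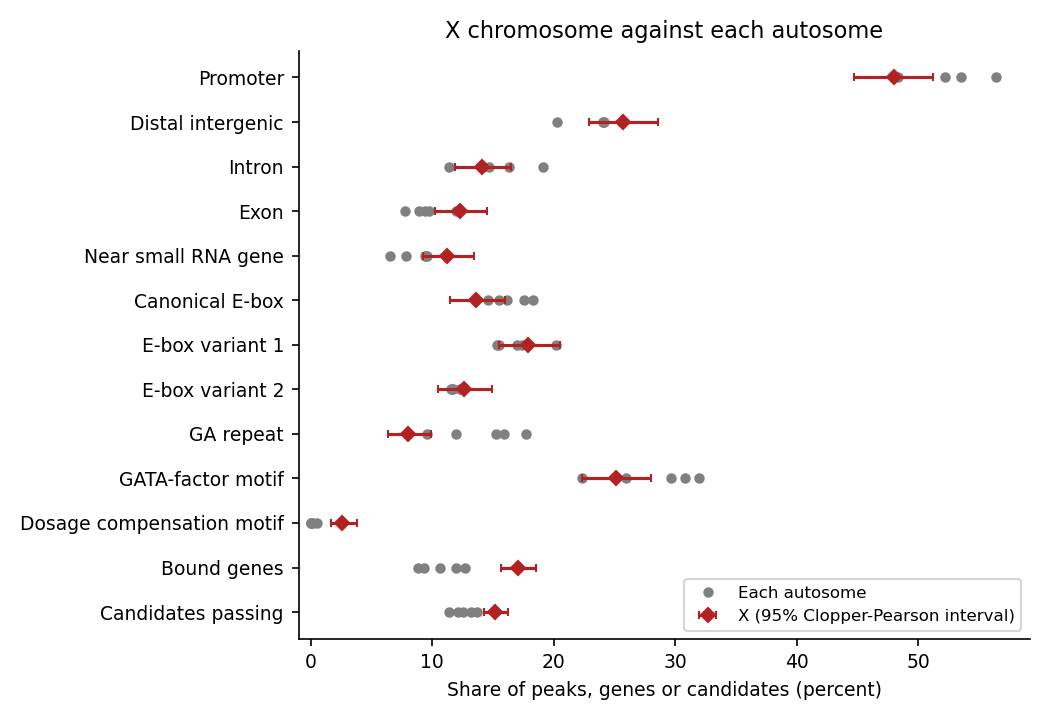
Share in percent of peaks (locations and motifs), genes (bound genes) or pooled candidates (candidates passing) on X, as red diamonds with exact 95% intervals, and on each of the 5 autosomes, as grey points. The canonical E-box is CACGTG and its variants 1 and 2 are CACATG and CAAGTG. X stands above every autosome for bound genes, for candidates passing and for the dosage compensation motif, and below every autosome for the GA repeat. It also lies above every autosome for peaks near small RNA genes and, narrowly, for exons, distal intergenic sites and CAAGTG. For CACGTG it lies below every autosome.

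The dosage compensation motif set X summits apart from autosomal ones by the largest ratio of the motifs searched. Within 100 bp of the summit 24 of 938 X peaks (2.56%, 1.65 to 3.78%) held GCGCAGGG or its reverse complement. On the autosomes 4 of 2971 did (0.135%, 0.0367 to 0.344%; two-sided Fisher's exact test, adjusted exact p = 5.8e-11). The letters are more common on X as sequence, but much less so than at summits: 0.0851% of X windows of the same length and 0.0553% of autosomal ones held them. Counted from the motif, 28 of 81 X sites (34.6%, 24.3 to 46.0%) lay within 100 bp of a peak summit, and 4 of 233 autosomal sites (1.72%, 0.470 to 4.34%).

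The bases beside the core differed between X sites at peaks and the rest. TC preceded the core at 13 of the 28 X sites at peaks, at 6 of the 53 X sites elsewhere and at 6 of the 233 autosomal sites. None of the 4 autosomal sites at peaks had it. Some autosomal sites, including some at peaks, have identical bases around the core, so the 233 are not all independent. AG, the bases after the core in the consensus, followed it at 5 of 28, 5 of 53 and 15 of 233 sites in the same order. Both ends were present at 2, 1 and 0 sites, so few sites held the full consensus. Members with TC before a core numbered 11 and had a median signal of 351, while the 13 members without it had a median of 135. The sequences printed above show it in the first 6 and lack it in the last 3. These differences of signal were not tested.

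The 24 members were spread over X. They occurred in 16 of its 18 bins, from 4.55% to 97% of its length, and 4 of them held 2 sites each. Of the 24, 11 were distal intergenic, 8 in promoters, 4 in introns and 1 in an exon, so 4.56% of the distal intergenic members had the motif and 1.78% of the promoter members. Their signals ran from 92.1 to 569 with a median of 260, against 137 for the other members, and 13 of them stood in the strongest 25%. Of the 24, 2 also held CACGTG.

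The site near W02H3.3 was the strongest distal one, with a signal of 565, 202 in replicate 1 and 358 in replicate 2. The site in an intron of mom-1, a gene of Wnt secretion, had 484, with 176 and 312. The site near gtr-1 had 434, with 152 and 283. The first of 2 near F20B6.9 had 408, with 134 and 273. These 4 sites ranked high in both replicates and higher in replicate 2.

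Upstream of xol-1, the master switch gene of sex determination, the summit lay 4914 bp from the start and had 304, with 109 in replicate 1 and 201 in replicate 2. A tRNA gene lies within 500 bp of it. The strongest member of the 24, between R04E5.9 and cnnm-2, had 569, with 252 and 319, and held CACGTG as well. At the other end, jkk-1, a kinase gene of the JNK pathway, had 92.1, and daf-12, a nuclear hormone receptor gene, had 92.6, both just above the threshold.

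The replicates differed in how they ranked these sites. Of the 24 members 18 ranked higher in replicate 2 than in replicate 1, against 435 of 881 other members (49.4%). The median ratio of replicate 2 to replicate 1 signal was 1.56 for the 24 and 1.30 for the rest. The share on X nonetheless passed the test with each replicate taken alone, at 2.64% against 0.1% in replicate 2 and 2.05% against 0.201% in replicate 1 (adjusted exact p = 5.0e-12 and 2.2e-07). These sets were the 3935 candidates of highest signal in each replicate's list, not peaks thresholded by IDR. The part that the difference between replicates has in the signals of these sites was not tested. A peak records enrichment in the anti-GFP precipitate, and these lists alone do not show whether MXL-3 itself binds at this motif.

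**Figure D3:**
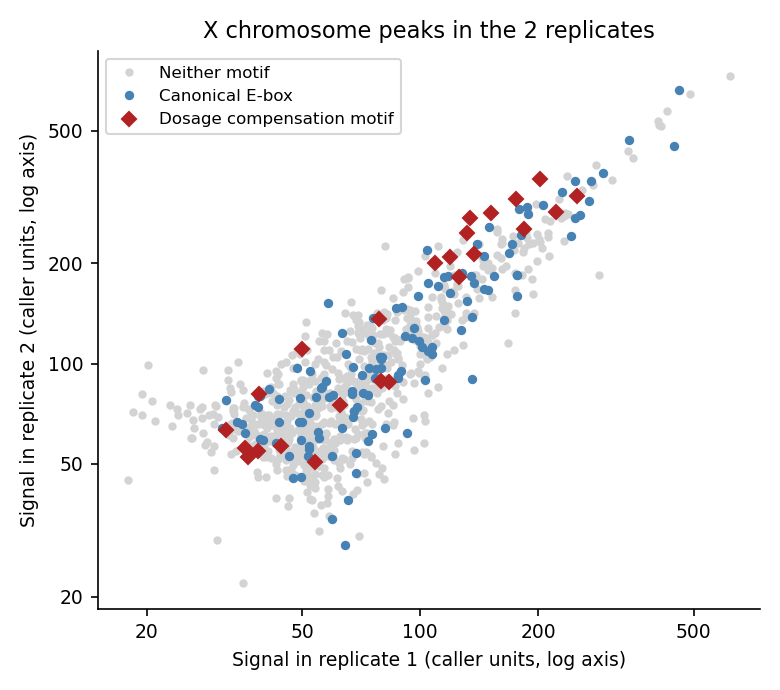
Signal of each X peak found in both replicate lists, replicate 1 against replicate 2, on log axes in the caller's units. Peaks with CACGTG (blue) run along the whole cloud, while most of those with the dosage compensation motif (red diamonds) lie towards its replicate 2 side.

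CACGTG was enriched at X summits over their flanks. It lay within 100 bp of 128 X summits (13.6%, 11.5 to 16.0%) and within the same distance of 32 windows placed 500 bp away (3.41%). At 122 members it was at the summit and not the flank, and at 26 the reverse (two-sided exact McNemar p = 4.5e-16). The median distance from the summit was 28 bp, and 91 lay within 50 bp. On the autosomes 16.5% (15.2 to 17.9%) of summits had CACGTG, and the X share was below that of each autosome, 14.6 to 18.3%. The difference, -2.85 points, did not pass after adjustment (unadjusted exact p = 0.040, adjusted exact p = 0.0749). Widening the window to 200 bp gave 16.5% and 20.3% (adjusted exact p = 0.0304).

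The letters themselves are rarer on X. CACGTG occurred in 2.64% of X windows of that length and 3.48% of autosomal ones. Per site, X was ahead: 137 of 2440 X sites (5.61%, 4.73 to 6.6%) were at a peak, against 536 of 15263 autosomal sites (3.51%, 3.23 to 3.82%). X also has more peaks per Mb, 53.2 against 31.5 to 42.5 on single autosomes, and the part of this in the lead was not tested. Other letters were also ahead on X: CACATG at 2.81% against 2.18%, CAAGTG at 1.46% against 1.07% and TGATAA at 1.64% against 1.47%. The GA repeat was behind, at 7.6% against 9.03%. By location the share of summits with CACGTG was higher on X in introns alone. Intron summits had CACGTG most often on X, 24.2% of 132, against 19.2% on the autosomes. Promoter summits had it at 11.8% against 15.3%, distal intergenic summits at 13.3% against 17.7% and exon summits at 9.57% against 15.4%. These splits were not tested.

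The share with CACGTG was higher among stronger X peaks. In 4 equal parts of the peaks outside the zone, from the strongest, the X shares were 21.7, 13.6, 11.3 and 7.5%, and the autosomal shares 26.6, 14.7, 13.0 and 11.9%. X members with the motif had a median signal of 177 and those without it 135. The E-box variants differed by less than 1 point between X and the autosomes within 100 bp of the summit. CACATG was at 17.9% of X summits and 17.1% of autosomal ones (adjusted exact p = 0.586), and CAAGTG at 12.6% and 11.9% (adjusted exact p = 0.586). Within 200 bp CAAGTG was at 22.4% and 18.6% (adjusted exact p = 0.0304).

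GA repeats were scarcer at X summits. GAGAGAGA, on either strand, lay near 75 X summits (8%, 6.34 to 9.92%) and 13.9% (12.6 to 15.2%) of autosomal ones (adjusted exact p = 3.6e-06). On the 5 autosomes the share ran from 9.55% to 17.7%. The gap was widest away from promoters, with 7.88% against 18.2% at distal intergenic summits and 7.58% against 17.2% in introns, and narrow in promoters, with 8.89% against 11.2%. In windows across the chromosomes the repeat stood at 1.12% on X and 1.36% on the autosomes. The GATA-factor motif TGATAA was at 25.1% of X summits and 28.3% of autosomal ones (adjusted exact p = 0.0896). Among the stronger 50% of the peaks these were 20.1% and 26.9% (adjusted exact p = 0.0101).

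Small RNA genes lay near X summits slightly more often. Of the members 105 (11.2%, 9.25 to 13.4%) were within 500 bp of a tRNA, snoRNA, snRNA or microRNA gene, against 8.52% (7.54 to 9.58%) of autosomal peaks (adjusted exact p = 0.0484). Positions this close to such a gene make up 1.95% of X and 1.18% of the autosomes, so X summits exceeded their background by a smaller factor than autosomal ones. Under 4 of the alternatives the difference missed the threshold, replicate 2 alone among them at 9.80% against 8.30% (adjusted exact p = 0.209). X holds 276 tRNA genes and each autosome 57 to 78. Gene for gene the tRNA shares were close, with a summit near 115 of 276 X genes (41.7%) and 125 of 336 autosomal ones (37.2%). Of the 105 members 93 were near tRNA genes, with a median signal of 138 and none above 304. For snoRNA genes the shares were 5 of 33 on X and 95 of 313 on the autosomes. The member with the highest signal near any of these genes, 373, lay in the promoter window of sdha-1 at a snoRNA gene, a gene for a succinate dehydrogenase subunit.

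Among microRNA genes counted by promoter window, 13 of 72 on X (18.1%) had a summit and 26 of 185 on the autosomes (14.1%). Of all protein-coding genes 17.1% on X and 10.4% on the autosomes had one, so the X microRNA share was near its background. The cluster in an intron of F09A5.3 was the strongest on X. One summit, with a signal of 313, 128 in replicate 1 and 187 in replicate 2, lay upstream of mir-54, mir-55 and mir-56. A neighbouring one had 340, with 175 and 166. Other X clusters with a summit were mir-73 with mir-74 at 108, mir-75 at 141, and mir-239a with mir-239b at 131.

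Gene lists were read as counts against the background shares of 17.1% on X and 10.4% on the autosomes, with no test. Regulators came first. Of 23 nuclear hormone receptor genes on X 6 were bound (26.1%), and of 246 on the autosomes 42 (17.1%). They were led by nhr-35 and by nhr-1 at 350 and nhr-32 at 275. Of 6 lin genes on X 2 were bound (33.3%), and of 41 on the autosomes 20 (48.8%). Those on X were lin-14, a heterochronic timing gene, at 327 and lin-15B at 113, the latter with its summit at the far edge of the window. None of 18 ceh homeobox genes, none of 6 hlh genes and none of 32 flp and nlp neuropeptide genes on X was bound, and the autosomal counts were 3 of 45, 2 of 19 and 3 of 70.

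Of 4 GATA factor genes on X the gut regulator elt-2 was bound, with 51.5 in replicate 1 and 48.1 in replicate 2. The epidermal regulator elt-3 had 95.6, with 46.0 and 53.4. Both stood near the threshold, and none of 7 autosomal GATA factor genes was bound. Of 6 X genes of sex determination and dosage compensation 2 were bound, sdc-2 at 151 with 53.9 and 100 and sdc-1 at 113 with 60.1 and 55.0. Their products recruit the dosage compensation complex to X. The other 4, xol-1, sex-1, fox-1 and ceh-39, had no summit in the window. On the autosomes 2 of 15 such genes were bound.

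Metabolic and autophagy genes on X were few. All 3 autophagy genes were bound, epg-7 at 300, atg-2 at 157 and atg-16.1 at 113, against 9 of 23 on the autosomes. Of 4 fat metabolism genes acs-17 at 272 and acs-22 at 105 were bound, both acyl-CoA synthetase genes. The acs-22 summit had no replicate 1 summit within 100 bp. One of 3 V-ATPase genes, vha-12 at 272, one of 3 glutathione S-transferase genes, gst-42 at 668, and one of 2 ribosomal protein genes, rpl-11.2 at 255, had a summit. None of 4 UDP-glucuronosyltransferase genes and none of 7 cytochrome P450 genes did. The autosomal counts for those 2 lists were also low, 3 of 63 and 3 of 67. For fat metabolism, V-ATPase, glutathione S-transferase and ribosomal protein genes they were 16 of 59, 7 of 17, 10 of 41 and 35 of 76.

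Structural and membrane genes gave mixed counts. Of 14 muscle genes on X 4 were bound, the actin gene act-4 at 167, the troponin T genes tnt-2 at 107 and mup-2 at 99.0, and unc-27, a troponin I gene, at 93.2. On the autosomes 7 of 31 were. Collagens had 3 of 27 on X, none above 135, and 13 of 129 on the autosomes. None of 6 acetylcholine receptor subunit genes, none of 6 innexins and none of 5 vitellogenins on X was bound. The autosomal counts were 0 of 15, 1 of 19 and 0 of 1.

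**Figure D4:**
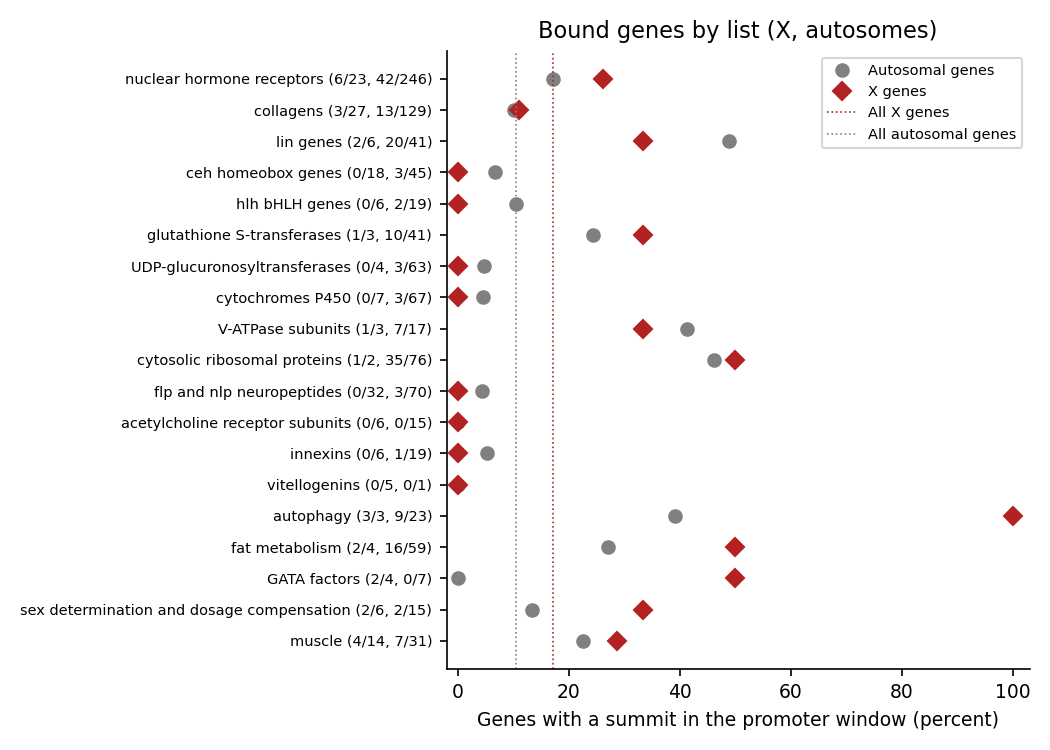
Percent of genes with a summit in the promoter window for each list, on X (red diamonds) and on the autosomes (grey points), with bound and total genes of X and of the autosomes in brackets. Dotted lines mark all X genes at 17.1% and all autosomal genes at 10.4%, and 8 lists have no bound X gene.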

How the data were processed

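ChIP-seq of MXL-3::EGFP was made in 2 biological replicates of 1 group. The authors deposited peak lists on ce11, made per replicate and from pooled replicates, each with 30000 candidates, and an IDR-thresholded list that was part of the pooled one, per the listings deposited with them. Each peak's signal value is the authors' own deposited signal, on an undefined scale, comparable within its list only. The sources used here do not name a peak caller or an aligner.

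Positions are 1-based, on WBcel235, which is ce11, with Ensembl release 115 gene models. Shares of X peaks and of peaks on chromosomes I to V were compared with two-sided Fisher's exact tests, adjusted by Benjamini-Hochberg over 15 tests (threshold 0.05, of which 5 passed and 8 had an unadjusted p below it). The share of peaks on X used an exact binomial test and summits against flanks an exact McNemar test. Intervals are Clopper-Pearson at 95%. Motif letters were matched on either strand up to 100 bp from a summit. Flank windows were centred 500 bp from it, the side being random with a fixed seed. Repeats of the same motif could overlap.

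Members, lists and tests were chosen with earlier results of these data known. Named genes were those at the 20 strongest summits, the strongest per location, fullest bin and small RNA kind, and bound list members. The 24 motif members, mdl-1's run and microRNA clusters were named after their values were seen. Methods were run on simulated peaks placed at random along the chromosomes, and a planted CACGTG difference was recovered. The planted difference was much larger than the observed one, so its recovery does not show that one so small would be found. Real peaks cluster and favour promoters, which this simulation did not copy. Tests used scipy 1.17.1 with pandas 2.3.3 and numpy 2.4.6 in Python 3.11.15, and plots matplotlib 3.10.9. Alternatives were other zones, windows, distances and peak sets, each replicate alone and the central 50% of each chromosome. For a replicate alone, the 3935 candidates of highest signal in its list were used, with no IDR threshold.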

Additional observations from a re-analysis of the deposited data

How the results depend on the processing

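Values are in percentage points, X minus autosome unless stated. Of 160 alternative values 133 kept their direction and their side of the threshold. Over the alternatives the share of peaks on X, minus its share of length or genes, stayed between 2.72 and 10.4, the bound gene share between 3.52 and 7.78, the GA repeat between -6.71 and -3.07, the dosage compensation motif between 1.57 and 3.29, and CACGTG on X, summits minus flanks, between 7.89 and 15.2, all past the threshold. In the central 50% of each chromosome, added after seeing the data, the candidate pass share fell to 0.422, below the threshold. The promoter share passed with 1 peak per cluster at -5.74 and with a 2000 bp window at -6.34, and ran from -5.09 to -1.90 with 1 replicate left out, passing without replicate 1. The distal intergenic share ran from 1.91 to 4.33 likewise, passing without replicate 1. Without peaks near small RNA genes the promoter share shrank to -1.46 and the distal intergenic share to 0.354, both missing the threshold. The exon share passed at 2.91 with the 20 kb zone, at 3.17 with 1 peak per cluster, and at 3.09 and 2.57 with the 500 and 2000 bp windows. In the stronger 50% of the peaks the exon share nearly vanished, at 0.147. The small RNA share missed the threshold at 2.38 with the 200 kb zone, at 1.60 in the stronger 50% of the peaks and at 2.5 with a 1000 bp distance, and ran from 1.50 to 2.84 with 1 replicate left out, missing it without replicate 1. The neighbour share passed at -7.07 within 2000 bp and reversed to 3.00 within 10000 bp. The share among the strongest 25% passed at 6.56 in the stronger 50%, at 4.5 without peaks near small RNA genes and at 3.39 as the strongest 10%. With 1 peak per cluster it shrank to 0.781 and missed the threshold. CACGTG passed at -3.81 and CAAGTG at 3.81 in the 200 bp motif window, and GATA at -6.79 in the stronger 50%. In the central 50% of each chromosome CACGTG shrank to -1.14 and GATA to -0.991, both missing the threshold. Reversals below the threshold were the intron share at 1.67 with the 2000 bp promoter window, CAAGTG at -0.0883 in the 50 bp window, and CACATG at -0.0638 with 1 peak per cluster, -0.145 without peaks near small RNA genes, -0.85 in the 50 bp window and -0.346 in the central 50%. The causes were not tested. No paired analysis was possible because the study has 1 group. Depth is unknown, and with 2 replicates pooled by the authors the intervals hold counting error only.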
